A study of Drosophila melanogaster with 4 samples.

Results

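The sex determination genes and the yolk protein genes of Drosophila melanogaster were followed in larvae of the third instar, in the wild type and in larvae with an extra copy of Inr-a (Pcf11). The genes were chosen by symbol and comprised Sxl, tra, tra2, dsx, fru, ix, Yp1, Yp2 and Yp3, that is 9 of the 14029 genes and 58 of the 30090 transcripts in the deposited values. The wild type was Canton S with 2 copies of Inr-a, and the Inr-a duplication larvae had 3 copies. The latter were the non-fluorescent offspring of w[a]; Pcf11Dup/CyO GFP males and Canton S females, so their Y chromosome and a paternal set of autosomes came from another stock. Larvae of both genotypes were labelled as male and were raised at 25 °C. Total RNA of whole larvae was sequenced in 2 libraries per genotype, each a pool of 30 larvae. Nothing states that the pools came from separate crosses, so the p-values measure only the spread between these libraries.

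The values are CPM, the counts of a gene or transcript per 1000000 counts of its library. The deposited CPM were means over the 2 libraries of a genotype, from which the whole counts of each library were worked out. The recovered libraries held between 11304266 and 15423445 counts and are called A for the deeper and B for the shallower library of each genotype. Inr-a was at 59.2 ± 1.64 CPM in wild type and 89.2 ± 8.26 CPM with the duplication (SD, n = 2 each), 1.51 times as high. Its log2 fold change was 0.62 (SE 0.26, adjusted p = 0.180, limma), which did not pass the threshold of the test used for all genes. Of 13 male marker genes, 11 were among the rows, all of them Y-linked. All 11 had counts in the wild type, and their summed level was between 8.36 and 13.1 CPM in the 4 libraries. The exception in the Inr-a duplication was Pp1-Y1, a phosphatase gene of the Y chromosome, at 2.79 and 2.48 CPM in wild type and at 0 counts in the Inr-a duplication (adjusted p = 0.000492, limma). Genotype and origin of the Y chromosome cannot be told apart in this cross. The noncoding male RNAs roX1 and roX2 were not analysed here. Of 12 markers of the ovary, osk, Vm26Aa and Vm34Ca were at 0 in all libraries, and bcd, otu, Cp36 and Cp38 had at most 7 counts in a library. The summed level of the list was between 87.7 and 114 CPM. Most of this sum came from grk, orb and bru1, with means of 14.6, 35.3 and 40.3 CPM in wild type. In the Inr-a duplication their means were 15.3, 33.9 and 48.8 CPM.

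In flies, sex is set by a splicing cascade. Sxl, an RNA-binding protein that is made in females, keeps its own transcripts in the female form and directs the female splicing of tra. The tra protein, together with tra2, directs the female splicing of dsx and fru, which encode transcription factors. In males the productive forms of Sxl and tra are not made, and dsx and fru are spliced in the male default way. The female dsx protein works with the cofactor ix and activates the yolk protein genes Yp1, Yp2 and Yp3 in the adult female fat body, while the male dsx protein represses them. The lists of male and female forms used here follow from the exons and reading frames of the annotation (Ensembl, release 115) and not from the measured values.

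All 6 genes of the cascade were detected in every library, and of the yolk protein genes Yp3 was as well, while Yp1 was at 0 and Yp2 had at most 3 counts in a library. No member differed between genotypes past the threshold of an adjusted p of 0.05. Of the 9 genes, 7 had enough counts for the test, 0 were called, and 0 had an unadjusted p below 0.05. Over all 11540 genes tested, 1.72% were called higher and 0.503% lower in the Inr-a duplication, 2.23% in either direction, and 20.8% had an unadjusted p below 0.05 (limma on log2 of scaled CPM plus 0.5, Benjamini-Hochberg adjusted over all genes). The fitted log2 fold change was above 0 for 5 members and below 0 for 2, with a median of 0.13 beside 0.02 over all genes tested. The genotypes did not overlap for 2 of the 7 members tested, tra and Yp3, beside 53.3% of all genes tested. With between 20 and 560 counts per library for these 7 genes and 2 libraries per genotype, every interval spanned 0 and none was narrower than about 1 unit of log2. Inr-a itself, at 1.51 times its wild type level, was not called either, so the test can miss a change of that size.

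**Figure D1:**
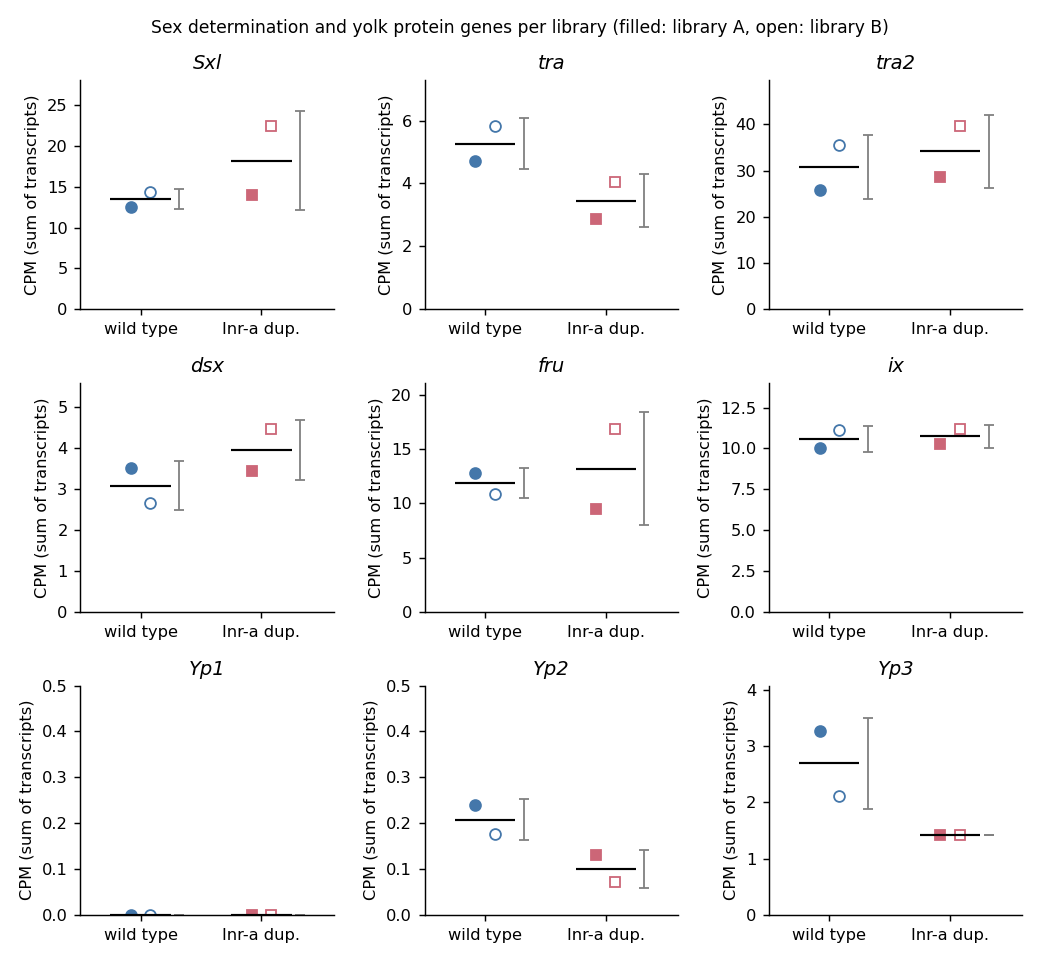
CPM of each member gene, summed over its transcripts, in the 2 wild type libraries (blue circles) and the 2 Inr-a duplication libraries (red squares); black lines are means and grey bars the SD (n = 2). The genotypes do not overlap for tra and Yp3, for which both Inr-a duplication libraries lie lower, as for 30.3% of all genes tested. Yp2 also lies lower, but only on 3 and 2 counts in wild type and 2 and 1 in the Inr-a duplication. Yp1 is at 0 throughout.

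Levels of different genes were compared per kilobase of annotated transcript. The order in wild type was tra2 at 22.3 ± 4.91 CPM per kb, ix at 14.6 ± 1.08, tra at 6.26 ± 0.719, Sxl at 3.78 ± 0.166, fru at 3.52 ± 0.300, Yp3 at 1.81 ± 0.542, dsx at 0.714 ± 0.105 and Yp2 at 0.134 ± 0.0282 CPM per kb (SD, n = 2). Among neighbours in that order only the libraries of Sxl and fru overlapped. In the Inr-a duplication the order was tra2 at 24.5 ± 5.69 CPM per kb, ix at 14.8 ± 0.947, Sxl at 5.37 ± 1.75, tra at 4.17 ± 1.22, fru at 3.38 ± 1.10, dsx at 1.04 ± 0.180, Yp3 at 0.956 ± 0.00305 and Yp2 at 0.0646 ± 0.0267 CPM per kb. There the libraries of Sxl, tra and fru overlapped each other, and so did those of dsx and Yp3. The general splicing cofactor tra2 and the cofactor ix were thus the most abundant members per length in both genotypes. Because whole larvae were sequenced, fewer expressing cells and less RNA per cell cannot be told apart for any of these levels.

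Sxl (FBgn0264270, chromosome X, 7074550 to 7098053, minus strand, BDGP6) was at 12.6 and 14.3 CPM in wild type and at 13.9 and 22.5 CPM in the Inr-a duplication. The ranges overlapped, and Inr-a duplication library B stood above the other 3 libraries. The fitted log2 fold change was 0.42 (SE 0.29, 95% interval -0.18 to 1.01, adjusted p = 0.405, limma), and it was 0.15 without that library. The same library held the highest value for 5 of the 7 members tested, beside 39.6% of all genes tested. Its part in the values of the members was not tested beyond leaving it out.

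Sxl is annotated with 23 transcripts, of which 10 had counts and 13 were at 0 in all libraries. Male forms carry the male exon, whose stop codons cut the reading frame to 42 or 48 amino acids, and full-frame forms, the female kind, encode 331 to 366 amino acids where they had counts. Male forms were the larger part of Sxl in every library. They were at 8.84 and 13.3 CPM in wild type and at 11.5 and 12.7 CPM in the Inr-a duplication, whose mean was 1.097 times the wild type mean (two-sided exact permutation p = 1). The male forms of the duplication libraries thus lay between those of the wild type libraries.

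Full-frame forms of Sxl were at 3.74 and 1.06 CPM in wild type and at 2.40 and 9.80 CPM in the Inr-a duplication (two-sided exact permutation p = 0.667, where the smallest p that 2 against 2 libraries allow is 0.333). As a share of the Sxl counts they took 29.7% (95% Wilson interval 23.2 to 37.3) and 7.41% (4.29 to 12.5) in wild type, and 17.2% (12.8 to 22.8) and 43.5% (38.2 to 49.0) in the Inr-a duplication. The intervals cover counting error only, and not the division of reads among transcripts that share exons. The spread within each genotype was as large as the difference of 11.8 percentage points between the means, which was -1.37 without Inr-a duplication library B.

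Most full-frame counts lay on transcripts that begin at an internal start 5170 bases downstream of the first annotated start. This is the position of the early promoter of Sxl, known for its activity in female embryos. Of 47, 12, 37 and 138 full-frame counts in wild type A and B and Inr-a duplication A and B, 34, 12, 37 and 134 were on these transcripts. Their first exon has 187 bases that occur in no male form. The full-frame forms from the first annotated start, the promoter that is active after early embryogenesis, had 13, 0, 0 and 4 counts. The latter forms were thus at 0 in 2 of the 4 libraries.

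Single Sxl transcripts varied widely between libraries of a genotype. The male form Sxl-RF had 51 and 57 counts in wild type A and B, and 70 and 0 counts in their Inr-a duplication counterparts. The full-frame form Sxl-RN had 0 counts in 3 libraries and 91 counts in Inr-a duplication library B. Sxl-RF and Sxl-RN end in the same last exon, which Sxl-RZ also uses, and the transcripts with this exon together had 75, 83, 89 and 168 counts. The library without Sxl-RF was thus the library with Sxl-RN.

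The other Sxl transcripts with counts did not separate the genotypes, apart from Sxl-RO. The male form Sxl-RM was at 2.55 and 5.93 CPM in wild type and 4.08 and 7.24 CPM in the Inr-a duplication. The full-frame form Sxl-RR was at 2.71 and 1.06 CPM in wild type and 2.07 and 2.70 CPM in the Inr-a duplication. The male form Sxl-RZ was at 1.91 and 2.30 CPM in wild type and 1.23 and 5.47 CPM in the Inr-a duplication. Of the remaining forms, Sxl-RO had 5 counts in each Inr-a duplication library and 0 in wild type, Sxl-RAA had 26 counts in Inr-a duplication library A only, and Sxl-RH, Sxl-RQ and Sxl-RAC had at most 7 counts in any library. The tests of the 4 Sxl transcripts with enough counts gave adjusted p-values of 0.602 or more (limma, adjusted over 20111 transcripts).

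**Figure D2:**
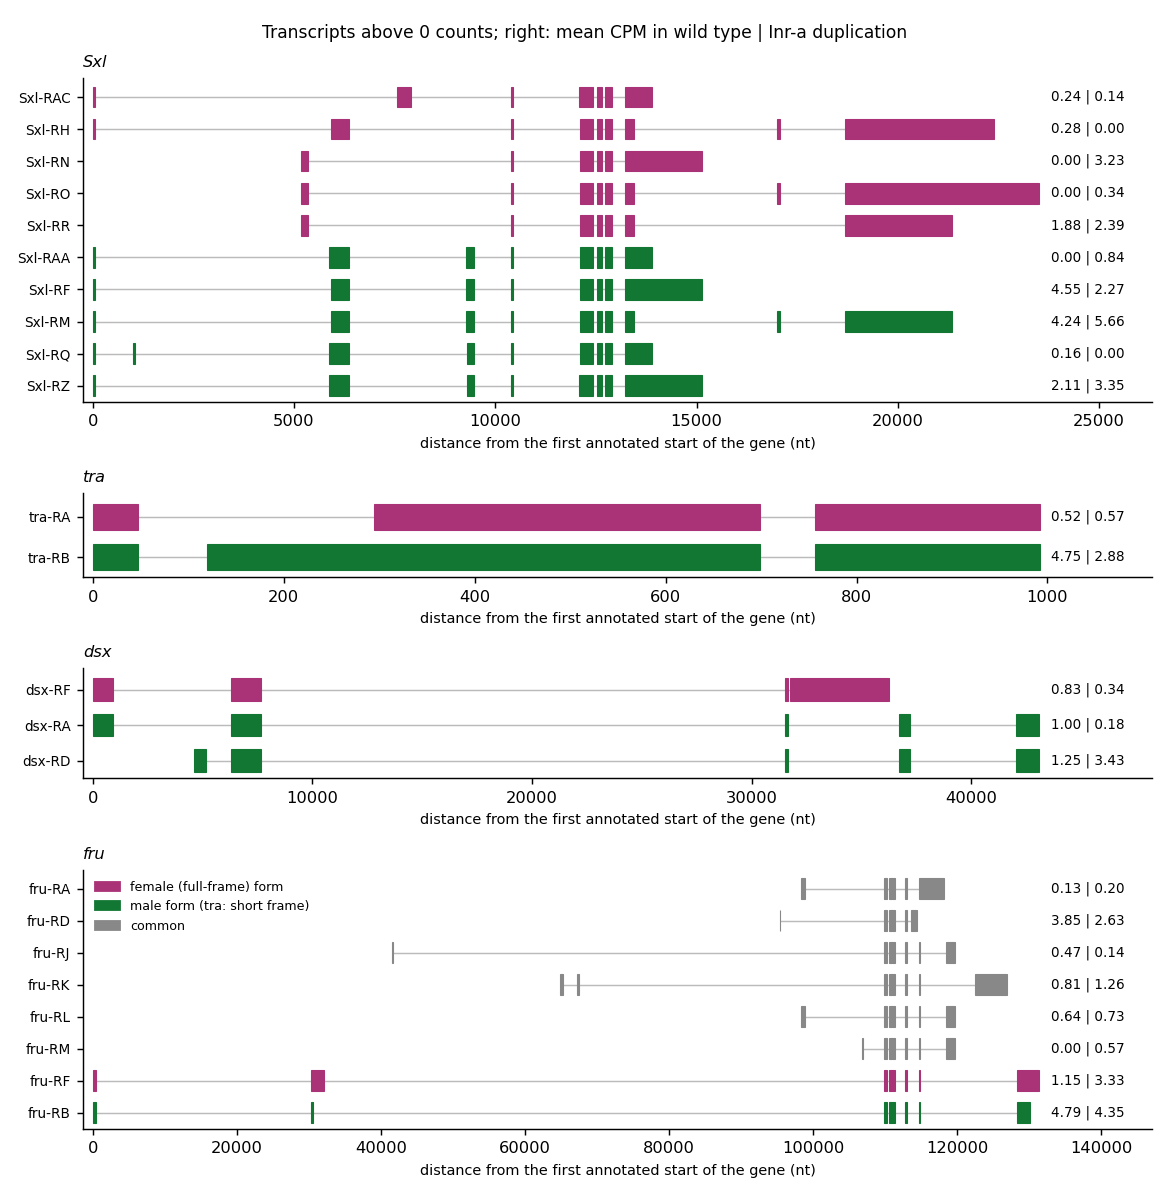
Exons (boxes) of the transcripts of Sxl, tra, dsx and fru that had counts, against the distance in nucleotides from the first annotated start of the gene, with the mean CPM in wild type and in the Inr-a duplication at the right. Male and female forms share most of their exons, and dsx is the gene whose male and female forms end in different exons.

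Other genes of the pathway were described by 6 lists, around Sxl, around tra and tra2, around dsx and fru, and around the yolk proteins. Together these lists held 49 genes, of which 42 were tested. Of these 0 were called higher and 0 lower, with a median log2 fold change of 0.19. An unadjusted p below 0.05 (limma) was found for 5 that were higher and 4 that were lower. Over all genes tested, 20.8% had such a p in either direction. Among 9 genes for the counting of X chromosomes and the Sxl promoter, 8 were tested with a median log2 fold change of 0.42. The summed level of this list was 132 and 144 CPM in wild type and 156 and 235 CPM in the Inr-a duplication, again highest in library B of the latter. Its furthest members were emc, an inhibitor of the bHLH activators, with a log2 fold change of 0.66 (adjusted p = 0.182), the activator sc with 0.63 (adjusted p = 0.317), and the zinc finger gene her with 0.54 (adjusted p = 0.328, limma).

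The splicing partners of Sxl and the m6A writers had a median log2 fold change of -0.21 over 12 genes, and 6 of them were lower in both Inr-a duplication libraries than in both wild type libraries. Over all genes tested, 30.3% lay this way. The furthest were the m6A complex member Hakai at -0.66 (adjusted p = 0.185), the splicing factor gene U2af38 at -0.57 (adjusted p = 0.216) and Flacc, another member of the m6A complex, at -0.48 (adjusted p = 0.333, limma). Of the targets of Sxl, msl-2, a subunit of the dosage compensation complex that Sxl blocks in females, was at 36.5 and 46.3 CPM in wild type and 44.9 and 44.7 CPM in the Inr-a duplication. The log2 fold change of msl-2 was 0.15 (adjusted p = 0.769) and that of N, the Notch receptor gene, was 0.40 (adjusted p = 0.399, limma).

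tra (FBgn0003741, chromosome 3L, 16590059 to 16591050, minus strand) was at 4.70 and 5.84 CPM in wild type and at 2.85 and 4.05 CPM in the Inr-a duplication. Both Inr-a duplication libraries lay below both wild type libraries, as for 30.3% of all genes tested. The ratio of the means was 0.655 and the log2 fold change -0.53 (SE 0.33, 95% interval -1.21 to 0.16, adjusted p = 0.359, limma). The gene overlaps l(3)73Ah on the other strand, and without stated strand information reads of the shared bases cannot be told apart.

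The 2 transcripts of tra differ in the start of the second exon. tra-RA, the female form, encodes 197 amino acids, and tra-RB, which both sexes make, is cut to 36 amino acids by 175 further bases. tra-RB made up most of the tra counts in all libraries. It was at 3.66 and 5.84 CPM in wild type and at 2.85 and 2.91 CPM in the Inr-a duplication, so that the means stood at a ratio of 0.607 with a log2 fold change of -0.58 (adjusted p = 0.608, limma). The libraries of the genotypes did not overlap for tra-RB, as for 24.7% of all transcripts tested in this direction.

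The female form tra-RA was found in 1 library of each genotype. It had 13 and 0 counts in wild type and 0 and 16 counts in the Inr-a duplication. Its share of the tra counts was 22.0% (Wilson interval 13.4 to 34.1) in wild type library A and 28.1% (18.1 to 40.8) in Inr-a duplication library B. In the other libraries it was 0 of 66 counts in wild type library B, which allows a share of up to 4.55%, and 0 of 44 counts in Inr-a duplication library A, which allows up to 6.82%. tra-RA has 0 bases of its own, so only a splice junction sets it apart from tra-RB. The means of the shares differed by 3.02 percentage points (two-sided exact permutation p = 1), less than the spread within either genotype.

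tra2 (FBgn0003742, chromosome 2R, 14602004 to 14604337, minus strand), the splicing cofactor of tra that both sexes make, was at 25.9 and 35.7 CPM in wild type and at 28.6 and 39.8 CPM in the Inr-a duplication. The libraries interleaved, and the log2 fold change was 0.18 (SE 0.27, 95% interval -0.39 to 0.74, adjusted p = 0.738, limma). tra2 overlaps Blos1 on the other strand.

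All 7 transcripts of tra2 had counts, and they encode proteins of 136 to 264 amino acids. tra2-RE, which encodes 179 amino acids, was at 5.33 and 7.70 CPM in wild type and at 9.01 and 9.94 CPM in the Inr-a duplication (log2 fold change 0.55, adjusted p = 0.551, limma). tra2-RD, which encodes 226 amino acids, was at 5.02 and 5.66 CPM in wild type and at 3.70 and 3.34 CPM in the Inr-a duplication (log2 fold change -0.52, adjusted p = 0.606, limma). These transcripts leaned in opposite directions without overlap between genotypes, as for 46.5% of all transcripts tested in either direction. Both start 471 bases downstream of the first annotated start.

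tra2-RB, with the shortest frame of 136 amino acids, had 19 and 12 counts in wild type, while each Inr-a duplication library had 0. Its wild type mean was 12.7-fold above a limit of 3 counts over both Inr-a duplication libraries, with its own counts taken as exact. That limit does not cover the division of reads among transcripts that share exons. Within a genotype, 0 counts beside 10 or more in the other library were found for 11.7% of all transcripts tested. The log2 fold change of tra2-RB was -1.82 (SE 0.60, 95% interval -3.37 to -0.26, limma). The unadjusted p of tra2-RB, 0.0302, was the only one below 0.05 among the member transcripts tested, with an adjusted p of 0.428 (limma). Of all transcripts tested 11.3% had such an unadjusted p and 0% were called in either direction, and no transcript passed the test.

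Of the forms of tra2 with 264 amino acids, tra2-RA and tra2-RG varied widely between libraries of a genotype. tra2-RA had 67 and 101 counts in wild type and 53 and 244 counts in the Inr-a duplication. tra2-RG had 13 and 51 counts in wild type and 30 and 0 counts in the Inr-a duplication. tra2-RF had 74 and 55 counts in wild type and 119 and 88 counts in the Inr-a duplication. Its genotypes did not overlap, as for 21.8% of all transcripts tested in this direction. Together the forms with 264 amino acids were at 12.3 and 18.3 CPM in wild type. In the Inr-a duplication they were at 13.1 and 23.6 CPM, and the libraries overlapped. The remaining form, tra2-RC, was at 1.75 and 2.92 CPM in wild type and at 2.79 and 2.91 CPM in the Inr-a duplication.

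**Figure D3:**
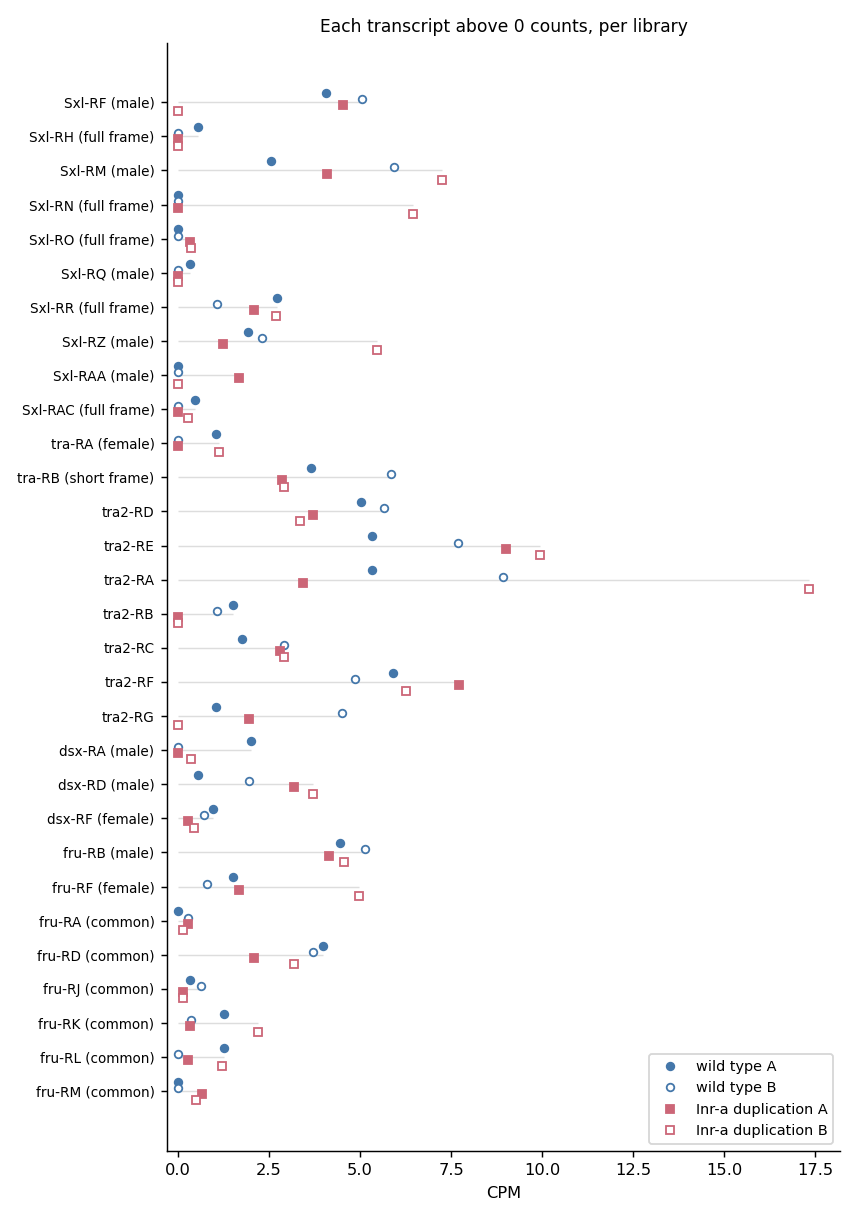
CPM of each transcript of Sxl, tra, tra2, dsx and fru that had counts, in the 4 libraries (blue circles, wild type; red squares, Inr-a duplication; filled A, open B). Several transcripts, such as Sxl-RN and tra2-RA, are far higher in Inr-a duplication library B than in the other 3 libraries, and Sxl-RF is at 0 in it.

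Transcripts with counts in a single library of a genotype were counted over all genes. Of the 21 member transcripts tested, 4 were at 0 in a library and at 10 or more counts in the other library of the same genotype, beside 11.7% of the 20111 transcripts tested. Of the 58 member transcripts, 33 had counts in any library, 25 were at 0 in all, and 19 had counts in all 4 libraries. The groups did not overlap for 9 of the 21 transcripts tested, beside 46.5% of all transcripts tested. Among 6 other splicing partners of tra and tra2, 0 were called, with a median log2 fold change of 0.18. Of these, Doa, a kinase of SR proteins, had a log2 fold change of 0.47 (adjusted p = 0.315, limma).

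dsx (FBgn0000504, chromosome 3R, 7924323 to 7967408, minus strand) was the only gene of Sxl, tra, dsx and fru whose male and female forms both separated the genotypes. The female form was lower and the male forms were higher in both Inr-a duplication libraries than in both wild type libraries, while the gene as a whole overlapped between genotypes. Over all transcripts tested, 46.5% did not overlap between genotypes, 21.8% higher and 24.7% lower in the Inr-a duplication. These shares are for single transcripts. The female form dsx-RF had too few counts for the test, and the male value is the sum of dsx-RA and dsx-RD. The whole gene was at 3.50 and 2.65 CPM in wild type and at 3.44 and 4.47 CPM in the Inr-a duplication. Its log2 fold change was 0.34 (SE 0.34, 95% interval -0.36 to 1.05, adjusted p = 0.581, limma). dsx overlaps lds on the other strand.

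The female form dsx-RF, which encodes 427 amino acids, had 12 and 8 counts in wild type and 4 and 6 counts in the Inr-a duplication. That is 0.832 ± 0.175 CPM in wild type and 0.343 ± 0.118 CPM in the Inr-a duplication (SD, n = 2 each), with a ratio of 0.412. The other female forms, dsx-RB and dsx-RC, were at 0. The male forms dsx-RA and dsx-RD, which encode 549 amino acids, together had 32 and 22 counts in wild type and 49 and 57 counts in the Inr-a duplication. They were at 2.25 ± 0.426 CPM in wild type and at 3.61 ± 0.615 CPM in the Inr-a duplication, with a ratio of 1.61. For each form the two-sided exact permutation p was 0.333, the smallest the design allows.

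The female form took 27.3% (Wilson interval 16.3 to 41.8) and 26.7% (14.2 to 44.4) of the dsx counts in wild type, and 7.55% (2.97 to 17.9) and 9.52% (4.44 to 19.3) in the Inr-a duplication. The mean shares were 26.97 ± 0.429% and 8.54 ± 1.398% (SD, n = 2 each), a difference of -18.4 percentage points. These SD were narrower than the counting error that the Wilson intervals show, so they do not measure the noise of the shares. The Wilson intervals of single libraries overlapped between genotypes, and the two-sided exact permutation p was 0.333. The difference was -12.0 percentage points when counts were divided by transcript length. The result rests on 30 counts of dsx-RF in all. Here the forms can be told apart by sequence, since the female forms have 4486 exon bases and the male forms 1555 that the other kind lacks.

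The male forms differ in their promoters. dsx-RD starts 4622 bases downstream of the start of dsx-RA. It had 7 and 22 counts in wild type and 49 and 52 counts in the Inr-a duplication, with a log2 fold change of 1.31 (SE 0.60, 95% interval -0.27 to 2.88, adjusted p = 0.477, limma). The log2 fold change of dsx-RD was 0.72 without wild type library A and 1.90 without wild type library B. dsx-RA had 25 and 0 counts in wild type and 0 and 5 counts in the Inr-a duplication. Both Inr-a duplication libraries thus held nearly all of their male dsx counts on the downstream start, while the wild type libraries differed from each other.

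**Figure D4:**
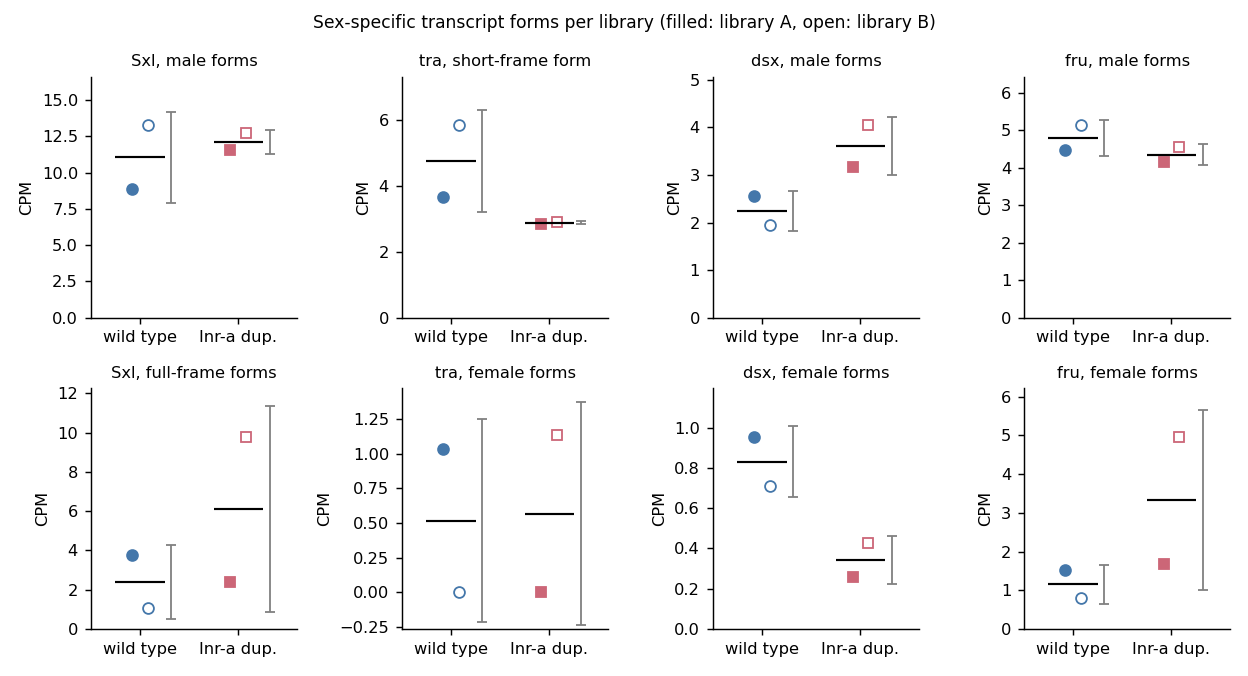
CPM of the male (for tra, short-frame) and female (for Sxl, full-frame) forms in wild type (blue circles) and Inr-a duplication (red squares) libraries; black lines are means and grey bars the SD (n = 2), which passes below 0 for the female form of tra. The female form of dsx lies lower and the male forms higher in both Inr-a duplication libraries. The female form of fru lies higher and the short-frame form of tra lower in both. The full-frame forms of Sxl, the female form of tra and the male forms of Sxl and fru overlap. Over all transcripts tested, 46.5% did not overlap between genotypes.

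fru (FBgn0004652, chromosome 3R, 18414273 to 18545586, minus strand), which in the nervous system of adult males controls courtship, was at 12.8 and 10.9 CPM in wild type and at 9.53 and 16.9 CPM in the Inr-a duplication. Both wild type libraries lay between those of the Inr-a duplication. The log2 fold change was 0.13 (SE 0.30, 95% interval -0.49 to 0.75, adjusted p = 0.835, limma), and it was -0.20 without Inr-a duplication library B.

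Only transcripts from the most distal fru promoter are spliced by sex, and the other promoters give forms common to both sexes. Of the 14 annotated transcripts, 8 had counts. The male form fru-RB, which encodes 789 amino acids, lay within a narrow range. It had 56 and 58 counts in wild type and 64 and 64 counts in the Inr-a duplication, with a log2 fold change of -0.11 (SE 0.38, adjusted p = 0.932, limma). The other male forms fru-RE, fru-RG and fru-RN were at 0.

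The female form fru-RF, which encodes 688 amino acids, had 19 and 9 counts in wild type and 26 and 70 counts in the Inr-a duplication. The level was 1.15 ± 0.507 CPM in wild type and 3.33 ± 2.32 CPM in the Inr-a duplication (SD, n = 2 each), with a ratio of 2.88. The genotypes did not overlap, as for 21.8% of all transcripts tested in this direction, and the values 1.51 CPM in wild type library A and 1.69 CPM in Inr-a duplication library A lay close together. The log2 fold change was 1.11 (SE 0.64, adjusted p = 0.534, limma). As a share of all fru counts the female form took 11.8% (Wilson interval 7.69 to 17.7) and 7.32% (3.90 to 13.3) in wild type, and 17.7% (12.4 to 24.7) and 29.4% (24.0 to 35.5) in the Inr-a duplication. The difference of the mean shares was 14.0 percentage points (two-sided exact permutation p = 0.333) and 8.13 without Inr-a duplication library B. It was 8.59 on counts per kilobase, and 21.2 as a share of the transcripts from the distal promoter.

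The female forms of fru and dsx thus leaned in opposite directions. Both are known splicing targets of tra and tra2. fru-RF has 2801 bases that no male form or common form holds, while fru-RB has 0 bases of its own. Of the 2801 bases, 1601 lie in the second exon. The other 1200 only lengthen the last exon, which fru-RF shares with the male form fru-RB. Which of these bases the fru-RF counts came from was not tested. The forms from the other promoters together had 86 and 56 counts in wild type and 57 and 104 counts in the Inr-a duplication. The most abundant was fru-RD at 3.98 and 3.72 CPM in wild type and 2.07 and 3.19 CPM in the Inr-a duplication (log2 fold change -0.48, adjusted p = 0.665, limma). Of the rest, fru-RM had 0 counts in wild type and 10 and 7 counts in the Inr-a duplication. Its mean there was 4.56-fold above a limit of 3 counts over both wild type libraries, with its own counts taken as exact. fru-RM had too few counts for the test. fru-RJ had 4 and 7 counts in wild type and 2 and 2 counts in the Inr-a duplication, and fru-RA, fru-RK and fru-RL overlapped between genotypes.

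Of 16 partners and targets of dsx and fru, 10 were tested and 0 were called, with a median log2 fold change of 0.35. The sex-dependent adult genes Fad2, a fatty acid desaturase for pheromones, and Cyp4d21 were at 0 in all libraries. The furthest of the list was sxe2, a lipase-like gene, at 6.29 and 8.05 CPM in wild type and 5.12 and 2.48 CPM in the Inr-a duplication (log2 fold change -0.86, adjusted p = 0.175, limma). Next were the homeotic gene Abd-B, which acts with dsx in the posterior abdomen, at 0.73 (adjusted p = 0.190) and bnl, an FGF ligand, at 0.62 (adjusted p = 0.370, limma).

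ix (FBgn0001276, chromosome 2R, 11359437 to 11360163, minus strand) encodes a Mediator subunit that female dsx needs, and it is made in both sexes from a single annotated exon. It was at 10.03 and 11.1 CPM in wild type and at 10.2 and 11.2 CPM in the Inr-a duplication. The libraries interleaved, and the log2 fold change was 0.05 (SE 0.29, 95% interval -0.55 to 0.64, adjusted p = 0.944, limma). Of the 7 members tested ix had the ratio of means closest to 1, with means at 10.6 ± 0.787 and 10.7 ± 0.689 CPM (SD, n = 2 each).

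The yolk protein genes, all on chromosome X, were the lowest members by count. Yp1 (FBgn0004045, 10053811 to 10055498, plus strand) had 0 counts in all 4 libraries, where 3 counts correspond to between 0.195 and 0.265 CPM. Yp2 (FBgn0005391, 10050951 to 10052636, minus strand) had 3 and 2 counts in wild type and 2 and 1 counts in the Inr-a duplication. With 8 counts in all Yp2 was not tested, and no fold change is given.

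Yp3 (FBgn0004047, 13759546 to 13761547, plus strand) was detected in every library, with 41 and 24 counts in wild type and 22 and 20 counts in the Inr-a duplication. That is 3.26 and 2.12 CPM in wild type, and 1.43 and 1.42 CPM in the Inr-a duplication. Both Inr-a duplication libraries lay below both wild type libraries, with a ratio of means of 0.528. The log2 fold change of -0.68 (SE 0.37, 95% interval -1.46 to 0.09, adjusted p = 0.292, limma) was the furthest from 0 of the 7 members tested, and it was not called.

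Of the 4 genes for the uptake of yolk and the control of yolk genes, 0 were called. The yolk receptor gene yl leaned the same way as Yp3, at 1.91 and 2.21 CPM in wild type and 0.843 and 0.355 CPM in the Inr-a duplication (log2 fold change -1.23, SE 0.41, adjusted p = 0.105, limma). srp, a GATA factor of the fat body, was at 40.7 and 40.6 CPM in wild type and 60.0 and 61.4 CPM in the Inr-a duplication (log2 fold change 0.60, adjusted p = 0.188), and the repressor gene Aef1 had a log2 fold change of 0.51 (adjusted p = 0.340, limma). The 6 markers of the larval fat body summed to 65371 CPM in wild type and 75810 CPM in the Inr-a duplication by the authors' means, which carry no error. They did not lean 1 way: Lsp1alpha (1542 and 4878 CPM), Lsp1beta (7004 and 14839), Lsp1gamma (1403 and 6373) and Lsp2 (22171 and 24750) had the higher mean in the Inr-a duplication, and Fbp1 (28992 and 21196) and Fbp2 (4259 and 3775) in wild type. The 12 markers of the testis germline summed to 1086 and 1205 CPM in wild type and to 817 and 704 CPM in the Inr-a duplication. Of these 0 were at 0 counts and 0 of 12 were called, with a median log2 fold change of -0.31. The largest parts of the sum were betaTub85D (means of 582 and 388 CPM) and Mst87F (301 and 153). Log2 fold changes ran from -0.95 for Mst87F to 0.57 for can, and mia, dj, fzo and bol were also above 0. Of the 12, 7 were lower in both Inr-a duplication libraries than in both wild type libraries, and 2 were higher. Over all genes tested these shares were 30.3% and 22.9%. The part of either tissue in the levels of the members was not tested.

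**Figure D5:**
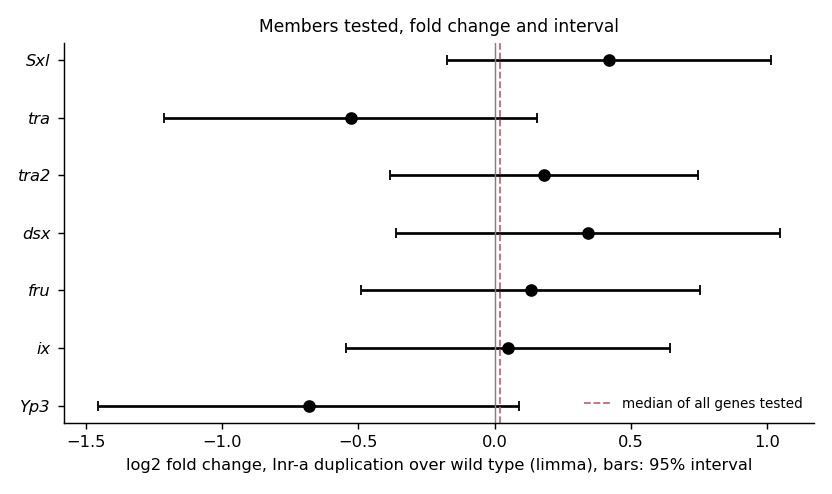
Log2 fold change of the Inr-a duplication over wild type (limma) for the 7 members tested, with 95% intervals; the dashed line is the median of all genes tested. The values run from -0.68 for Yp3 to 0.42 for Sxl, and all intervals span 0.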

How the data were processed

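The authors trimmed the reads, quantified transcripts with Salmon 1.4.0, normalized them to CPM and deposited each genotype's mean CPM for 30090 transcripts (build BDGP6). The deposited ratio, a fold of these means by the authors, was not used. Members and lists were chosen with earlier results of these data known. From the mean CPM, whole counts of both libraries were recovered: 99.4% of wild type and 99.7% of Inr-a duplication transcripts above 0 had exactly 1 pair of counts. The 128 genes with several pairs, all with a transcript above 1000 CPM in a genotype, were left out of values per library; no member was among them. On 8000 simulated means, whenever 1 pair was found it was the right one (100%).

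Transcripts were summed by symbol and chromosome. Genes and transcripts with at least 10 counts, scaled to the median library, in 2 libraries and 15 counts in all were tested in R 4.3.3 with limma 3.58.1, with a mean-variance trend, after adding 0.5 to TMM-scaled CPM and taking log2, adjusted by Benjamini-Hochberg over all tested, threshold 0.05. The TMM factors were 1.01, 1.01, 0.942 and 1.04. Shares of forms were compared with the two-sided exact permutation test over libraries, and Wilson intervals are at 95%. Forms were set from Ensembl release 115 (BDGP6.54), which held 29964 of the 30090 transcripts. Strandedness of the library is not given in the sources used here. Members were named whatever their values, and from each pathway list the genes that passed or else the 3 furthest from 0, some of which are not reported here. Other scalings, filters, pseudocounts and left-out libraries were tried. Other steps used Python 3.11.15.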

Additional observations from a re-analysis of the deposited data

How the results depend on the processing

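No member gene and no member transcript was called in any of the 10 alternatives for genes and 8 for transcripts, in which leaving out a library leaves a lone library that is assumed to vary like the other genotype. The calls over all genes did depend on the setting. Genes called higher were 199 as reported, 59 with library size in place of TMM, 45 with no filter on low counts, and between 87 and 542 when a library was left out. Genes called lower were 58 as reported, 17 with library size, 14 with no filter, 88 with at least 50 counts in 2 libraries, and between 33 and 489 when a library was left out. Transcripts called higher numbered 0 as reported and between 0 and 130 with a library left out, and those called lower between 0 and 4. The cause was not tested.

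The log2 fold changes of tra2, fru and ix each changed sign in 1 alternative, a left-out library, and ranged from -0.05 to 0.39, from -0.20 to 0.44 and from -0.02 to 0.10. Those of tra (-0.69 to -0.39), Yp3 (-0.96 to -0.42), Sxl (0.15 to 0.67) and dsx (0.16 to 0.52) kept their sign. With a library left out, tra-RB ranged from -0.86 to -0.29, fru-RF from 0.52 to 1.71 and dsx-RD from 0.72 to 1.90. The difference in the female-form share of dsx was -12.0 percentage points on counts per kilobase and between -19.4 and -17.4 with a library left out. For Sxl the corresponding range was -1.37 to 25.0, for tra -11.0 to 17.1 and for fru 8.13 to 19.9. No paired analysis was possible because the deposited columns are means and the recovered libraries carry no replicate numbers. Depth limits the female form of dsx, with 30 counts in all, Yp3, with 107, and Yp2, with 8.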
